A study of Mus musculus with 8 samples.

Results

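Nodal is a secreted ligand of the TGF-β family, and the genes described here are Nodal itself, a relative among the ligands, its co-receptor, the SMADs that carry the signal to the nucleus, and inhibitors that the pathway switches on against itself. The 9 genes are Nodal, Inhbb, Tdgf1, Smad2, Smad3, Lefty1, Lefty2, Smad7 and Skil. They were taken by name from the gene table, and 9 of 9 had values, out of 17488 genes with values among the 48321 listed. The list was drawn up with earlier results of these data known, in which Lefty1, Lefty2, Smad7 and Skil were lower with the inhibitor in both lines. For those 4 genes the change with the inhibitor is therefore given as a description, with no p-value beside the change itself. The test of the difference between lines uses the same values, so its p-values for those 4 genes are a description too. The comparisons of both lines, treated or untreated, share those libraries, and the same holds there. The other genes of the 9 were also chosen with earlier results known, so their p-values are not free of that choice.

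Nodal binds activin receptors together with an EGF-CFC co-receptor such as Tdgf1, and the receptors phosphorylate SMAD2 and SMAD3, which enter the nucleus with SMAD4. Lefty proteins are secreted relatives of Nodal that bind the ligand and its co-receptor and block the signal, while SMAD7 acts on the receptors and SKIL on the nuclear SMAD complex. Mouse embryonic stem cells make Nodal and respond to it, and Lefty1, Lefty2, Smad7 and Skil are known targets of the pathway in these cells.

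Total RNA was sequenced from mouse E14 embryonic stem cells (strain 129/Ola) in 4 groups of 2 libraries each. The first line lacked its own GSK3α and carried the mutant kinase transgene GSK3alpha-L195G, and the second lacked its own GSK3β and carried GSK3Beta-L132G; they are called the GSK3α line and the GSK3β line. GSK3α and GSK3β are paralogous serine/threonine kinases, and mutations of this kind are made so that a bulky inhibitor analog can enter the kinase. In each line one group received 5 µM of the analog 3MB-PP1 for 2 h and the other group was left untreated, and all 4 groups had first been held for 6 h in serum-free N2B27 medium. The labels name no vehicle and no promoter for the transgenes, each paralog is represented by 1 line, and no line without a mutant kinase was analysed here, so an action of 3MB-PP1 on the mutant kinase and on other targets cannot be told apart. Nothing in the labels says that the replicates were separate cultures, so the tests measure the spread between these libraries, and in bulk RNA a change in the number of expressing cells and in RNA per cell cannot be told apart.

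The libraries held an estimated 21.5 to 32.4 M reads assigned to genes, and the 9 genes had an estimated 241 to 16128 reads per library. Values are the authors' gene counts scaled to a common upper quartile, so they compare a gene between libraries but not genes of different length. Gsk3a, the gene of GSK3α, averaged 141 ± 0.253 (SD, n = 2) in treated and 158 ± 3.31 in untreated cells of the GSK3α line, and 78.8 ± 1.62 in treated and 77.0 ± 1.21 in untreated cells of the GSK3β line. Gsk3b averaged 54.0 ± 1.82 in treated and 56.5 ± 2.50 in untreated cells of the GSK3α line, and 253 ± 6.53 in treated and 245 ± 14.9 in untreated cells of the GSK3β line. Each paralog was thus higher in the line that carries its transgene. Of 10 embryonic stem cell markers 10 had values, and their summed value lay between 6264 and 6647 in every library. In the GSK3β line it was 6647 and 6430 in treated libraries, above the 6264 and 6280 in untreated ones. In the GSK3α line the ranges overlapped, at 6432 and 6345 in treated and 6282 and 6445 in untreated libraries. Markers of other cell types were far lower. In each line most of their sums did not overlap between treated and untreated libraries. Of all tested genes, taken singly, 23% were higher and 19% lower without overlap in the GSK3α line, and 27.3% and 30% in the GSK3β line. In the GSK3β line 7 of 8 primitive endoderm markers with values summed to 36.8 to 40.4 in treated and 28.5 to 29.6 in untreated libraries. The 5 of 6 mesendoderm markers with values summed to 17.7 to 18.4 in treated and 14.03 to 15.1 in untreated ones. Of these 5 genes 4 averaged under 1 in untreated cells of that line. Eomes made up most of the sum, at 12.5 and 14.1 in treated and 11.53 and 11.60 in untreated libraries. The 4 of 5 trophoblast markers summed to 9.76 to 11.8 in treated and 7.70 to 8.43 in untreated ones, and 5 of 5 neural markers to 219.8 to 228.2 in treated and 158 to 168 in untreated ones. The 3 of 6 fibroblast markers with values summed to 13.3 to 13.9 in treated and 12.9 to 14.007 in untreated libraries of that line. In the GSK3α line the same sums were 42.5 to 42.7 in treated and 40.2 to 41.1 in untreated libraries for primitive endoderm, 16.1 to 17.7 in treated and 18.4 to 18.9 in untreated ones for mesendoderm, 6.55 to 7.57 in treated and 7.06 to 7.52 in untreated ones for trophoblast, 10.3 to 11.4 in treated and 9.34 to 9.74 in untreated ones for fibroblasts, and 163 to 165 in treated and 148 to 154 in untreated ones for neural markers. Foxa2, which both the primitive endoderm and the mesendoderm list name, had no values, and neither had Elf5, Postn, Lum and Dcn. The part of these sums in the results below was not tested.

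The 2 ligands differed in their response. Nodal missed the threshold in both lines, and Inhbb, which encodes the βB subunit of activin B and of inhibin B, fell about 2-fold in the GSK3β line. Nodal (chromosome 10, 61417972 to 61425338, plus strand; mm10 positions from GENCODE M21, as for all genes here) had values of 107 and 110.1 in treated libraries of the GSK3α line, against 116 and 117 in untreated ones. In the GSK3β line Nodal had 142 and 145 in treated libraries, against 138 and 129 in untreated ones. The treated libraries lay below the untreated ones in the GSK3α line and above them in the GSK3β line. The log2 change of value + 1 with 3MB-PP1 was -0.10 ± 0.04 (SE) in the GSK3α line (limma adjusted p = 0.252) and 0.11 ± 0.04 in the GSK3β line (adjusted p = 0.0567). Without untreated replicate 1 of the GSK3β line, the higher of the 2, the change there was 0.16 and passed (adjusted p = 0.0151).

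Inhbb (chromosome 1, 119415465 to 119422248, minus strand) had values of 9.85 and 10.3 in treated libraries of the GSK3β line, against 20.9 and 21.8 in untreated ones. The groups did not come near each other, and the log2 change was -1.01 ± 0.06 (adjusted p = 2.64e-09). Inhbb in the GSK3α line had 17.8 and 18.3 in treated libraries, against 21.2 and 21.8 in untreated ones. These libraries did not overlap either, but the log2 change of -0.24 ± 0.06, with a 95% interval of -0.37 to -0.10, missed the threshold (adjusted p = 0.10). Inhbb was the gene of the 9 for which the untreated lines were closest, at 21.4 ± 0.674 (SD, n = 2) in the GSK3β line and 21.5 ± 0.425 in the GSK3α line.

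**Figure D1:**
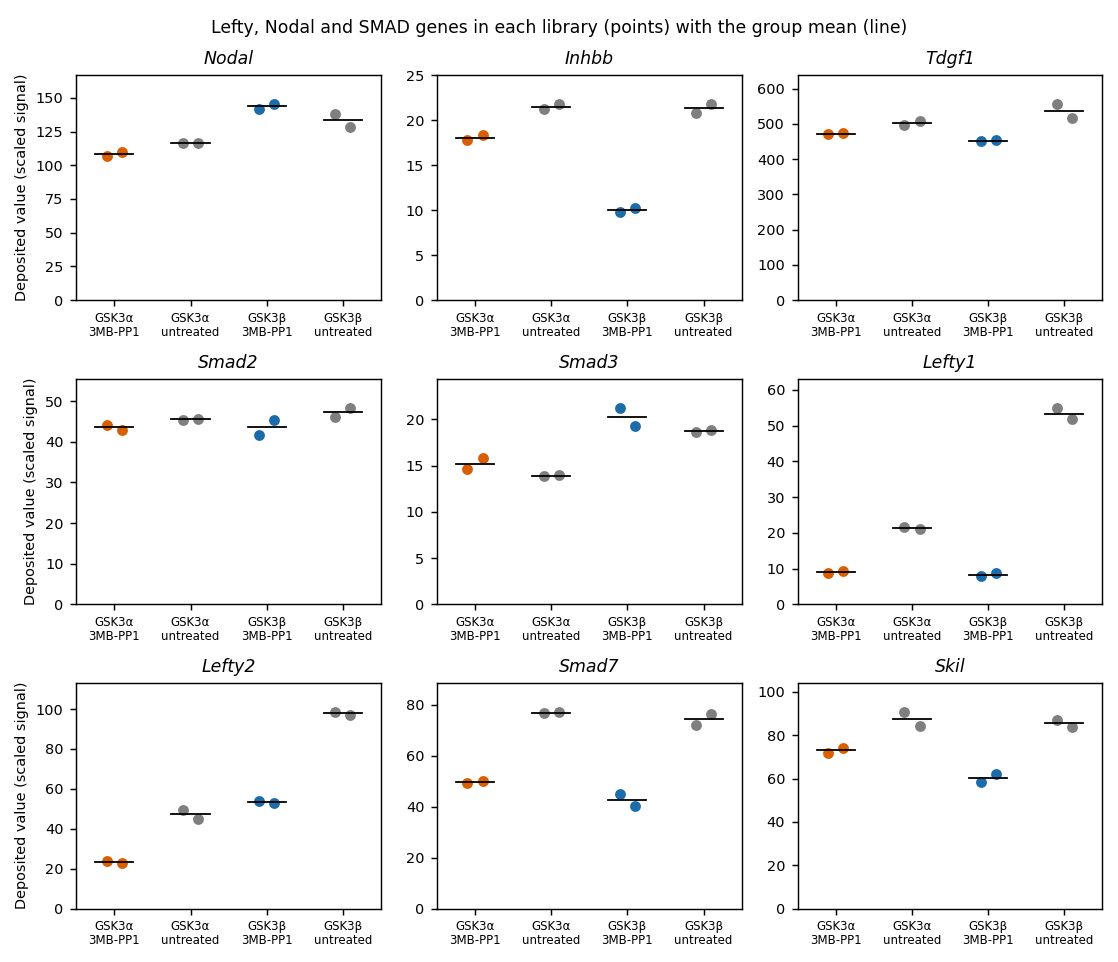
Deposited value (scaled signal, linear axis from 0, a separate scale for each gene) of the 9 genes in each library, with points for libraries and lines for group means; treated groups stand left of the untreated group of the same line. Lefty1 lies at 7.83 to 9.45 in the 4 treated libraries of both lines, while Lefty2 lies at 53.0 and 54.0 in treated libraries of the GSK3β line, above the 22.9 and 23.9 of treated libraries of the GSK3α line.

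Tdgf1 (chromosome 9, 110939603 to 110946158, minus strand) encodes Cripto, the EGF-CFC co-receptor of Nodal. Tdgf1 had values of 451 and 455 in treated libraries of the GSK3β line, against 557 and 517 in untreated ones. It fell there by 0.24 ± 0.03 on the log2 scale (adjusted p = 3.68e-05), and the groups did not overlap. The GSK3α line had 471 and 474 in treated libraries, against 499 and 508 in untreated ones, for a log2 change of -0.09 ± 0.03 (adjusted p = 0.248, not passed). The mouse genome holds an annotated near copy, Tdgf1-ps1 on chromosome 16 (3730510 to 3731022), whose value was 6.40 to 7.15% of that of Tdgf1 in every library. The Tdgf1-ps1 value averaged 31.9 ± 0.378 (SD, n = 2) in treated and 37.0 ± 0.0990 in untreated cells of the GSK3β line, a log2 change of -0.21 (adjusted p = 0.00921; 0.0972 without treated replicate 1). The estimated reads of Tdgf1-ps1 were whole numbers in 2 of 8 libraries, as when reads are shared between genes, so the Tdgf1 and Tdgf1-ps1 values cannot be fully separated.

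The 250 bases upstream of the annotated start are printed for Inhbb and Tdgf1, which fell in the GSK3β line, and for Nodal, which did not pass there. They come from RefSeq (build GRCm38.p6), in which 4 of the 9 genes were matched, the fourth being Smad3. Each is given 5′ to 3′ on the strand of the gene, and capitals mark a match to any of 3 motifs searched on both strands: AATNCACA for FOXH1, the DNA-binding partner of SMAD2 in Nodal signalling, CAGAC for SMADs, and CTTTGAT for the TCF/LEF factors that act with β-catenin.
Inhbb, chr1:119422249-119422498, minus strand: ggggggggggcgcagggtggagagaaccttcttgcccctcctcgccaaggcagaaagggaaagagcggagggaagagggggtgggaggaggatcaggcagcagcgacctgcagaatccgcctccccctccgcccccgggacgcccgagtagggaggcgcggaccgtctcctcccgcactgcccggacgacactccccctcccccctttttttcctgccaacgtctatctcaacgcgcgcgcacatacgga
Tdgf1, chr9:110946159-110946408, minus strand: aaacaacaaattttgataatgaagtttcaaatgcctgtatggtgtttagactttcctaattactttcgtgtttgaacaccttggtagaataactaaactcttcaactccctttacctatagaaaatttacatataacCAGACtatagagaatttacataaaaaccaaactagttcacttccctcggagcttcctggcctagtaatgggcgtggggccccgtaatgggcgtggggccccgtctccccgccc
Nodal, chr10:61417722-61417971, plus strand: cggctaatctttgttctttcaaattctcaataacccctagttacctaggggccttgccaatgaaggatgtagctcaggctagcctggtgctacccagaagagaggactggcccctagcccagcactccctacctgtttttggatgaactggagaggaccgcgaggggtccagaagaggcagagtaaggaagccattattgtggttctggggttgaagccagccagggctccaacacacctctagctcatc
Tdgf1 had 1 match to CAGAC, from -113 to -109 relative to the start, and 42.2% of the 32851 mouse promoters of this length hold that motif. The other windows, that of Smad3 included, had no match to the 3 motifs, and AATNCACA occurs in 3.18% and CTTTGAT in 3.21% of all such promoters. A match is a description of these letters and does not locate a binding site.

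Smad2 and Smad3, which encode the SMADs phosphorylated by the Nodal and activin receptors, missed the threshold in both lines. Smad3 (chromosome 9, 63646767 to 63757994, minus strand) had values of 14.7 and 15.8 in treated libraries of the GSK3α line, against 13.88 and 13.99 in untreated ones. In the GSK3β line it had 21.2 and 19.2 in treated libraries, against 18.6 and 18.8 in untreated ones. The treated libraries were the higher ones in both lines, but the log2 changes of 0.12 ± 0.07 (adjusted p = 0.521, 95% interval -0.02 to 0.26) and 0.11 ± 0.07 (adjusted p = 0.332, interval -0.04 to 0.25) were within what the spread allows. Smad2 (chromosome 18, 76241580 to 76310963, plus strand) had 44.2 and 42.9 in treated libraries of the GSK3α line, against 45.5 and 45.5 in untreated ones. In the GSK3β line it had 41.7 and 45.5 in treated libraries, against 46.2 and 48.3 in untreated ones. Its log2 changes were -0.06 ± 0.05 (adjusted p = 0.665, interval -0.16 to 0.04) in the GSK3α line and -0.11 ± 0.05 (adjusted p = 0.124, interval -0.21 to -0.01) in the GSK3β line.

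Lefty1 and Lefty2, the secreted Nodal antagonists, had lower values with 3MB-PP1 in both lines, and each followed its own pattern across lines. In the GSK3α line they were the furthest of the 9 below their untreated level, and in the GSK3β line Lefty1 was the furthest, with Inhbb between it and Lefty2. Lefty1 (chromosome 1, 180935022 to 180938400, plus strand) had values of 7.83 and 8.86 in treated libraries of the GSK3β line, against 54.9 and 51.8 in untreated ones. The GSK3α line had 8.86 and 9.45 in treated libraries, against 21.69 and 20.95 in untreated ones. The untreated lines stood more than 2-fold apart, and the treated ranges of the lines only met, at 8.86. The log2 changes were -2.54 ± 0.07 in the GSK3β line and -1.14 ± 0.07 in the GSK3α line. Lefty2 (chromosome 1, 180893108 to 180899103, plus strand, 35.9 kb from Lefty1) had 54.0 and 53.0 in treated libraries of the GSK3β line, against 98.3 and 97.2 in untreated ones. In the GSK3α line it had 23.9 and 22.9 in treated libraries, against 49.4 and 44.9 in untreated ones. Its log2 changes were -0.86 ± 0.05 in the GSK3β line and -0.98 ± 0.05 in the GSK3α line, and the treated GSK3β libraries still lay above the untreated GSK3α ones.

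The share of Lefty1 in the pair was lower with 3MB-PP1 in both lines, by more in the GSK3β line. On values per kilobase of annotated exon, which allow for the different lengths of the 2 genes, Lefty1 made up 17.7 and 19.9% of the sum of both in treated GSK3β libraries, against 45.3 and 44.2% in untreated ones. The share of Lefty1 in the GSK3α line was 35.5 and 38.0% in treated libraries, against 39.5 and 40.9% in untreated ones. The treated and untreated shares did not overlap in either line, and the shares were not tested. The sum of both genes per kilobase was 25.1 and 25.3 in treated libraries of the GSK3β line, against 68.9 and 66.7 in untreated ones, and 14.2 and 14.1 in treated libraries of the GSK3α line, against 31.3 and 29.1 in untreated ones. Lefty1 and Lefty2 are close in sequence, and their estimated reads were whole numbers in only 3 of 8 libraries each, against 8 of 8 for Nodal, Inhbb, Smad2, Smad3, Smad7 and Skil, so some reads may have been divided between the 2 genes.

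Smad7 (chromosome 18, 75367529 to 75395935, plus strand), the inhibitory SMAD that targets the receptors, had values of 45.1 and 40.2 in treated libraries of the GSK3β line, against 72.2 and 76.3 in untreated ones. Smad7 in the GSK3α line had 49.2 and 49.9 in treated libraries, against 76.6 and 77.0 in untreated ones. The untreated lines were near each other, and the log2 changes were -0.79 ± 0.05 in the GSK3β line and -0.62 ± 0.05 in the GSK3α line. Skil (chromosome 3, 31095058 to 31122577, plus strand), which encodes the SMAD repressor SnoN, had 58.3 and 62.2 in treated libraries of the GSK3β line, against 87.2 and 83.6 in untreated ones. Skil in the GSK3α line had 71.7 and 74.2 in treated libraries, against 90.5 and 84.2 in untreated ones. Its log2 changes were -0.50 ± 0.04 in the GSK3β line and -0.26 ± 0.04 in the GSK3α line.

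Counted over the 9 genes, 4 fell and 5 did not pass in the GSK3α line, where 0.881% of the 13959 tested genes passed in either direction, 0.265% as higher and 0.616% as lower. In the GSK3β line 6 fell and 3 did not pass, where 14.9% of the tested genes passed, 7.49% as higher and 7.44% as lower. The count in the GSK3α line was 3 without treated replicate 1, treated replicate 2 or untreated replicate 1 of that line, the gene no longer counted being Skil. Since 4 of these genes were listed for these changes, nothing is read from the counts. The same holds for the medians and the non-overlap given next, which include those 4 genes. The median log2 change of the 9 genes was -0.24 in the GSK3α line, against 0.01 over all tested genes, and -0.50 in the GSK3β line, against -0.01 over all tested genes. Treated and untreated libraries did not overlap for any of the 9 genes in either line. In the GSK3α line 1 gene was higher and 8 lower, where 23% of all tested genes were higher and 19% lower without overlap. In the GSK3β line 2 were higher and 7 lower, against 27.3% and 30% of all tested genes.

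**Figure D2:**
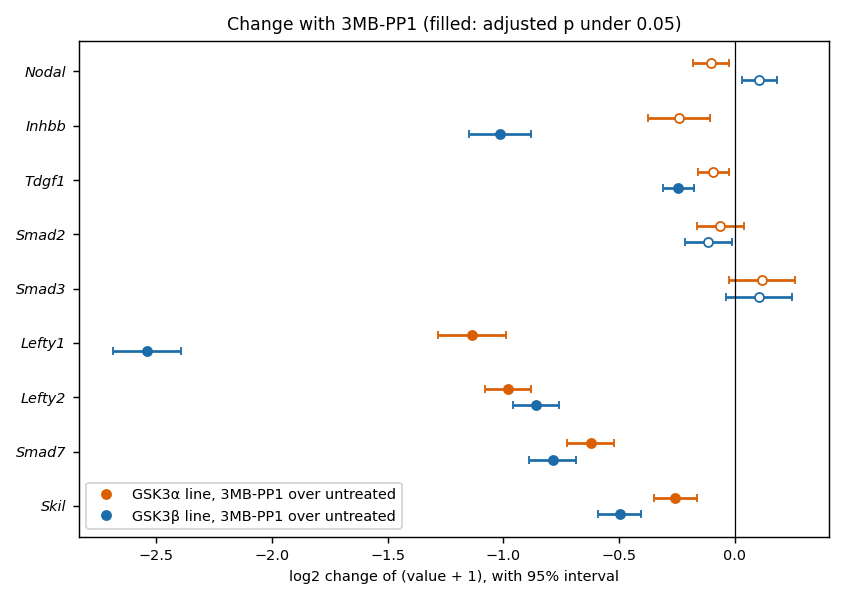
Log2 change of value + 1 with 3MB-PP1 over untreated for the 9 genes in the GSK3α and the GSK3β line, with 95% intervals; filled points passed an adjusted p of 0.05. Inhbb and Lefty1 show the widest gap between the lines, and the Nodal points lie on opposite sides of 0, at -0.10 and 0.11. Lefty1, Lefty2, Smad7 and Skil were listed for these changes, so the fill of their points is a description.

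Whether a gene responded differently in the 2 lines was tested as the difference of the changes, GSK3β minus GSK3α. Of the 9 genes 4 passed, 1 with a higher and 3 with a lower change in the GSK3β line, where 6.53% of the tested genes passed, 3.62% higher and 2.9% lower. Lefty1 and Skil, which are among these 4, were listed from the same values, so nothing is read from the count. The change of Lefty1 was lower in the GSK3β line by 1.40 ± 0.10 on the log2 scale (difference -1.40, adjusted p = 6.25e-08), and that of Inhbb by 0.78 ± 0.09 (difference -0.78, adjusted p = 2.34e-05). Skil followed with a difference of -0.24 ± 0.06 (adjusted p = 0.0245). The change of Nodal was higher in the GSK3β line, with a difference of 0.21 ± 0.05 (adjusted p = 0.0197). The differences of Lefty1 and Inhbb passed whichever library was left out. That of Skil was lost without treated replicate 1 (adjusted p = 0.0585), treated replicate 2 (0.116) or untreated replicate 2 (0.104) of the GSK3α line, and without treated replicate 1 (0.165) or untreated replicate 1 (0.0826) of the GSK3β line. That of Nodal was lost without treated replicate 1 of the GSK3α line (adjusted p = 0.112), and without treated replicate 1 (0.0554), treated replicate 2 (0.0827) or untreated replicate 2 (0.0520) of the GSK3β line.

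Among the genes whose difference did not pass, Tdgf1 was closest at -0.15 ± 0.05 (adjusted p = 0.0571), and it passed without untreated replicate 2 of the GSK3β line (-0.21, adjusted p = 0.0033). Lefty2 had a difference of 0.12 ± 0.07 (adjusted p = 0.317, 95% interval -0.02 to 0.26). As Lefty2 was listed from the same values, this is a description. Smad7 had a difference of -0.16 ± 0.07 (adjusted p = 0.171), Smad2 of -0.05 (adjusted p = 0.730) and Smad3 of -0.01 (adjusted p = 0.958).

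The untreated lines already differed for 5 of the 9 genes, all higher in the GSK3β line, where 48.2% of the tested genes differed, 22.3% higher and 25.9% lower. Lefty1 averaged 53.3 ± 2.18 (SD, n = 2) in the GSK3β line and 21.3 ± 0.523 in the GSK3α line, a log2 difference of 1.28 ± 0.07 (adjusted p = 3.44e-11). Lefty2 was also higher in the GSK3β line, by 1.04 (adjusted p = 2.91e-12). Smad3 averaged 18.7 ± 0.147 in the GSK3β line and 13.9 ± 0.0810 in the GSK3α line, a log2 difference of 0.40 ± 0.07 (adjusted p = 9.29e-05). Nodal averaged 133 ± 6.49 in the GSK3β line and 116 ± 0.400 in the GSK3α line, a log2 difference of 0.19 ± 0.04 (adjusted p = 0.000278). The smallest of the 5 differences was that of Tdgf1, at 0.09 (adjusted p = 0.0263), which was lost without the first untreated replicate of either line (adjusted p = 0.126 in the GSK3α line and 0.368 in the GSK3β line). Smad7 (-0.05, adjusted p = 0.423), Skil (-0.03, adjusted p = 0.576), Smad2 (0.05, adjusted p = 0.385) and Inhbb (-0.01, adjusted p = 0.903) did not pass. With 1 line per paralog, a difference between the paralogs and one between the lines cannot be told apart.

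With 3MB-PP1 the lines differed for 6 of the 9 genes, 3 higher and 3 lower in the GSK3β line, where 49% of the tested genes differed, 21.2% higher and 27.7% lower. Lefty1 was no longer among them, with a treated mean of 8.34 ± 0.731 (SD, n = 2) in the GSK3β line and 9.15 ± 0.417 in the GSK3α line and a log2 difference of -0.12 ± 0.07 (adjusted p = 0.159, 95% interval -0.27 to 0.03). Lefty2 stayed higher in the GSK3β line by 1.16 (adjusted p = 8.35e-13), Nodal by 0.40 ± 0.04 (adjusted p = 4.31e-08) and Smad3 by 0.39 (adjusted p = 0.000124). The 3 lower genes were Inhbb (-0.79 ± 0.06, adjusted p = 9.21e-09), Skil (-0.27, adjusted p = 4.84e-05) and Smad7 (-0.21, adjusted p = 0.00127), none of which differed detectably between the untreated lines. The Smad7 difference was lost without treated replicate 2 of the GSK3β line (-0.13, adjusted p = 0.0531). Tdgf1 (-0.06, adjusted p = 0.136) and Smad2 (0.00, adjusted p = 0.993, interval -0.10 to 0.10) did not pass. The group means of the 2 line comparisons come from different libraries, but all comparisons use 1 spread per gene from the 8 libraries. Each also shares libraries with the inhibitor comparisons above. The p-values of Lefty1, Lefty2, Smad7 and Skil in both, and the counts that include these genes, are therefore a description.

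**Figure D3:**
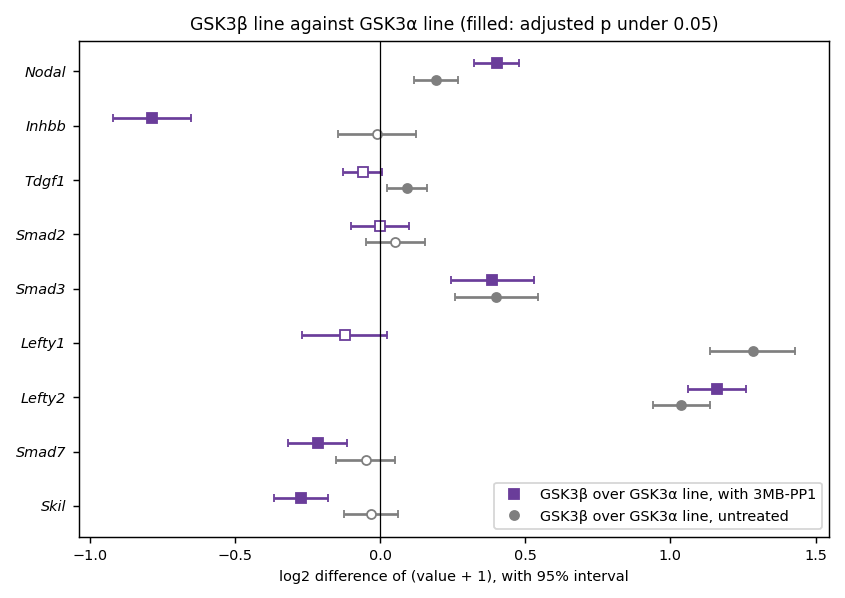
Log2 difference of value + 1 between the GSK3β and the GSK3α line for the 9 genes, in 3MB-PP1-treated cells and in untreated cells, with 95% intervals; filled points passed an adjusted p of 0.05. Lefty2 and Smad3 keep nearly the same difference in both states, Lefty1 is at -0.12 in treated and 1.28 in untreated cells, and Inhbb is at -0.79 in treated and -0.01 in untreated cells. Lefty1, Lefty2, Smad7 and Skil were listed for changes in these same libraries, so the fill of their points is a description.

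Per kilobase of exon, the co-receptor and the ligand were the most abundant transcripts of the 9. In untreated cells the value per kilobase of Tdgf1 was 205 in the GSK3β line and 192 in the GSK3α line, and that of Nodal was 63.6 in the GSK3β line and 55.6 in the GSK3α line. Lefty2 came next, at 37.4 per kilobase in the GSK3β line and 18.1 in the GSK3α line. Lefty1 stood above Smad7 in the untreated GSK3β line, at 30.3 against 16.4 per kilobase, and below it in the untreated GSK3α line, at 12.1 against 17.0. With 3MB-PP1 the value per kilobase of Lefty1 was 4.75 in the GSK3β line and 5.21 in the GSK3α line, which placed it below Skil, at 6.21 in the GSK3β line and 7.52 in the GSK3α line. Smad2, Inhbb and Smad3 were the lowest in untreated cells, between 5.38 and 2.51 per kilobase. In treated GSK3β cells Inhbb, at 2.37 per kilobase, was below Smad3, at 3.65. Levels per kilobase use the union of annotated exons and do not allow for the isoforms used.

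Beyond the 9 genes, a list of 57 other genes of the pathway was examined, of which 51 had values and 45 were tested. With limma 0 of the 45 passed in the GSK3α line, where 0.881% of all tested genes did, and 8 had an unadjusted p under 0.05, as had 1648 of the 13959 tested genes. In the GSK3β line 6 rose, 7 fell and 32 did not pass, where 7.49% of all tested genes rose and 7.44% fell, with a median log2 change of -0.03. Among 14 tested inhibitors inside the cell, Smad7 and Skil of the 9 genes included, 5 fell in that line and 9 did not pass. Smad7 and Skil were listed for their fall, so nothing is read from this count. The others that fell were Pmepa1, Tgif2 and Ski. Pmepa1, a membrane protein that sequesters receptor-activated SMADs, averaged 10.4 ± 0.137 (SD, n = 2) in treated and 17.5 ± 0.625 in untreated cells of the GSK3β line and fell by 0.70 ± 0.07 on the log2 scale (adjusted p = 7.62e-07). Its log2 change in the GSK3α line was -0.20 (adjusted p = 0.226). Tgif2, a repressor that binds SMADs, changed by -0.24 (adjusted p = 0.000754), and Ski, the relative of Skil, by -0.15 (adjusted p = 0.0114). The Ski call was lost without treated replicate 1 of the GSK3β line (adjusted p = 0.131).

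Gsc, the gene of the homeobox protein goosecoid and a Nodal target in the gastrula, rose in the GSK3β line by 0.54 (adjusted p = 0.0157). Its values there were 1.92 and 1.72 in treated and 0.860 and 1.03 in untreated libraries, near the filter of a mean of 1. Over the alternatives the log2 change ranged from 0.20 to 0.80. The call was lost without treated replicate 1 (log2 change 0.49), treated replicate 2 (0.59) or untreated replicate 1 (0.48) of that line. Gsc also belongs to the mesendoderm markers summed above.

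Fst, the secreted activin antagonist follistatin, rose in the GSK3β line, where it averaged 8.39 ± 0.823 (SD, n = 2) in treated and 5.10 ± 0.856 in untreated cells (log2 0.63 ± 0.11, adjusted p = 0.000637). It was thus the 1 of 5 tested extracellular inhibitors that moved up, while Lefty1 and Lefty2, which were listed for their fall, moved down and 2 did not pass. Pcsk6, a proprotein convertase that can cleave the Nodal precursor, averaged 157 ± 8.23 in treated and 117 ± 8.96 in untreated cells of that line (log2 0.42 ± 0.04, adjusted p = 2.33e-06). Among 7 receptors and co-receptors Acvr1b, the activin type I receptor ALK4, rose by 0.20 (adjusted p = 0.0111) beside the decrease of Tdgf1, and among 7 SMADs and nuclear partners Smad4 fell by 0.14 (adjusted p = 0.0212). The Acvr1b call was lost without treated replicate 1 (0.0955) or untreated replicate 1 (0.216) of the GSK3β line, and that of Smad4 without treated replicate 1 (0.155), treated replicate 2 (0.0803) or untreated replicate 2 (0.130).

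Of 6 genes that TGF-β regulates in many cell types, Cdkn1a, a cell-cycle inhibitor, rose by 0.92 (adjusted p = 8.36e-10) and Klf10 by 0.35 (adjusted p = 6.76e-06) in the GSK3β line, while Junb fell by 0.52 (adjusted p = 0.000218) and Cdkn2b by 0.33 (adjusted p = 0.0342). Cited2, a transcriptional co-regulator, changed by -0.26 (adjusted p = 0.00234). Cdkn2b was lost without treated replicate 1 (0.288), treated replicate 2 (0.0538) or untreated replicate 1 (0.214) of that line, and Cited2 without treated replicate 1 (0.0955). In the test of the difference between lines 6 of the 45 genes passed, where 6.53% of all tested genes did. Cdkn1a, Fst, Pcsk6 and Klf10 were higher and Pmepa1 and Cited2 lower in the GSK3β line, beside 3.62% higher and 2.9% lower over all tested genes.

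**Figure D4:**
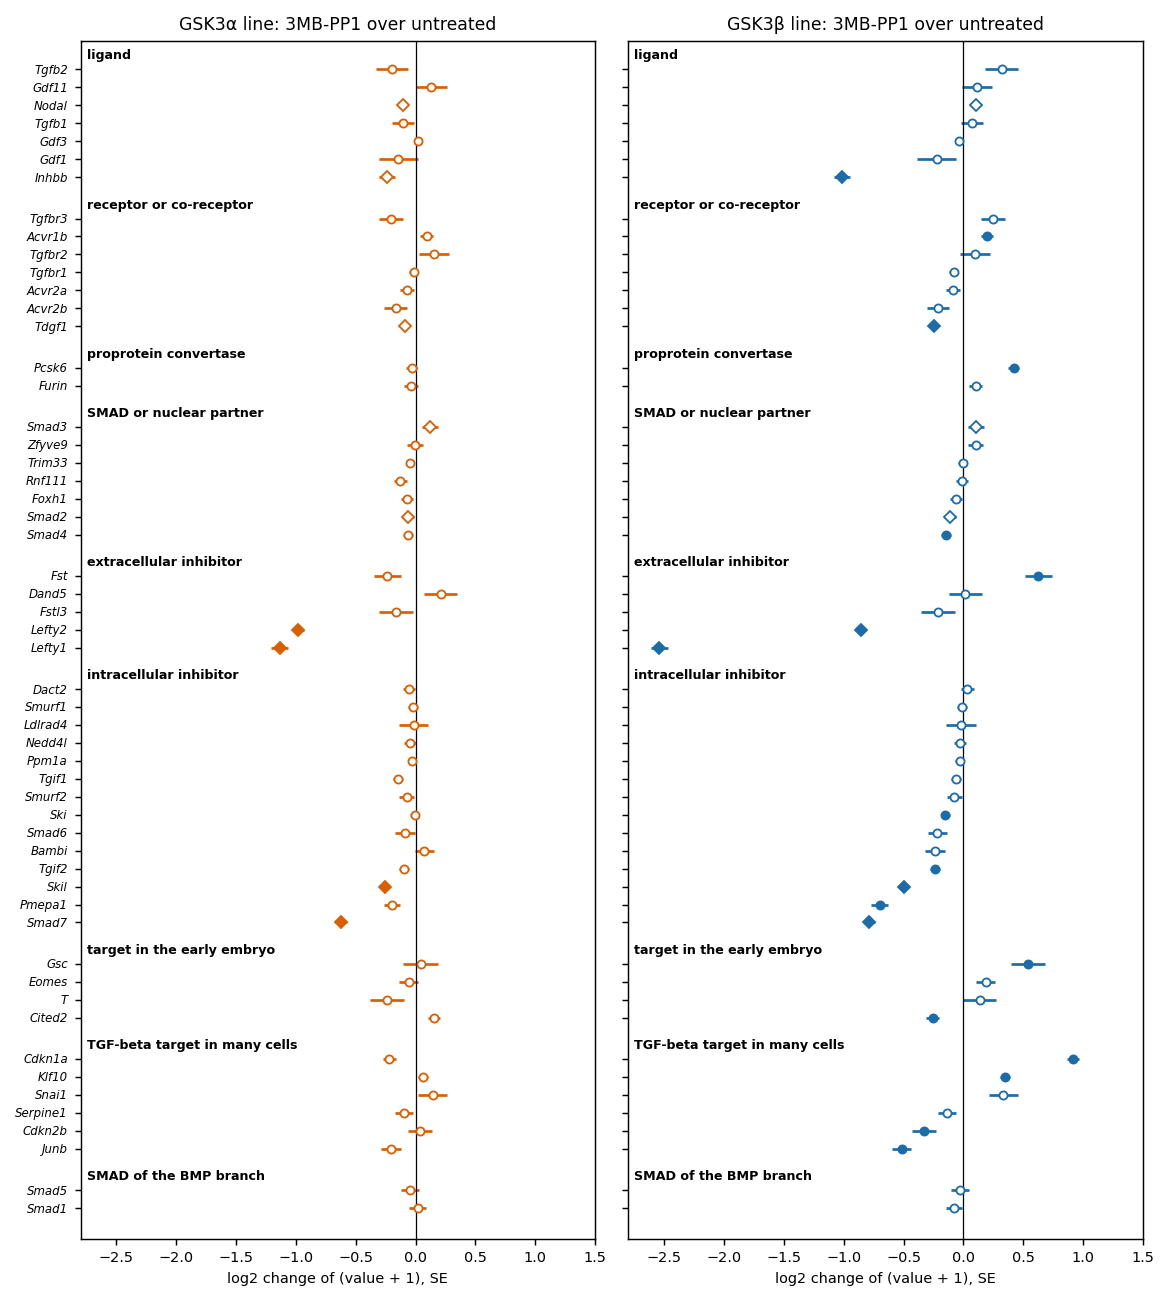
Log2 change of value + 1 with 3MB-PP1 over untreated, with SE, for the tested pathway genes grouped by role, in the GSK3α line and in the GSK3β line; filled points passed an adjusted p of 0.05. The filled points of the GSK3α line are Lefty1, Lefty2, Smad7 and Skil, while in the GSK3β line genes of most roles are filled, from Lefty1 at -2.54 to Cdkn1a at 0.92. Lefty1, Lefty2, Smad7 and Skil were listed for these changes, so the fill of their points is a description.

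The genes whose values followed each of the 9 most closely were found by Pearson's r on log2 of value + 1 over the 8 libraries, among 2096 genes with a mean of at least 5 and a range of at least 0.5. The 8 libraries form 4 groups that share line and treatment, so the coefficients are a description. Inhbb was followed most closely by Dusp6, a phosphatase of ERK (r = 0.99), Ccng2 (0.98) and Btg2 (0.98). Lefty1 was followed by Bcar1 (0.99), Slc7a7 (0.99) and Fgf15 (0.98), and Lefty2 by Ccnd2, a D-type cyclin (0.98), and Abcg2 (0.98). The coefficient does not compare the size of changes: Lefty1 ranged over 2.66 log2, against 0.58 for Bcar1, 0.62 for Slc7a7 and 1.36 for Fgf15. No gene stood in the first 3 of both antagonists. Smad7 was followed by Otx2, a homeobox gene (0.98), Myc (0.95) and Trim36 (0.95), and Skil by Crebrf (0.98), Msantd2 (0.98) and Junb (0.97). For Nodal the first 3 were Tgfbr3, the co-receptor betaglycan (0.98), Ptpn9 (0.98) and Pdf (0.98), for Tdgf1 they were 9330159F19Rik (0.98), Fgf15 (0.96) and Irf1 (0.96), and the genes close to Smad3 included Fam129a and Phgdh (0.99 each). Smad2, whose values moved least, had the weakest first match, Obox4-ps28 at 0.90, followed by Mxd4 (0.85) and Slc7a7 (0.83).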

How the data were processed

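Gene expression was measured by RNA sequencing (TruSeq libraries of total RNA) in 8 libraries of 2 mouse E14 lines, 2 libraries in each of 4 groups taken from the sample labels. Per the submitters' processing notes, the authors used TopHat2 and Partek with the mouse build mm10; versions, gene annotation, strand setting and filters are not given in the sources used here. The deposited values are a signal: estimated gene counts after scaling by the authors, with upper quartiles equal in all libraries to within 0.0548%. Taking each library's smallest value as 1 read, 63.5 to 67.6% of the values that came to at most 20 reads were whole (tolerance 0.1), so no test for raw counts was run, and estimated reads are the values in that unit. All value columns were mapped to samples. Of 48321 listed genes 30833 had no values in any library, and 27 listed names had been turned into dates.

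From these values, log2(value + 1) was fitted with limma 3.58.1 in R 4.3.3, with a variance trend and 1 mean per group over all 8 libraries, for the 13959 genes with a mean of at least 1 (3529 were left out). Tests are two-sided with Benjamini-Hochberg adjustment over all tested genes in each of 5 comparisons and a threshold of 0.05; fold changes on this scale understate those of low genes. The median SE was 0.0634 log2 (0.0897 for the difference between lines). The fit was checked on simulated data. Error bars, intervals and tests rest on 2 libraries per group. The members and lists were chosen with earlier results of these data known: the text names the 9 genes, Gsk3a and Gsk3b, pathway genes past the threshold, and the 3 genes most like each of the 9; some genes under this rule are not reported here, and the pathway counts leave 1 gene out. Alternatives were pseudocounts of 0.25 and 5, no filter and a mean of at least 5, 2 other scalings, no variance trend, a replicate block, the compared groups only, and each library left out. Gene positions and exon lengths come from GENCODE M21, upstream sequences from RefSeq GRCm38.p6.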

Additional observations from a re-analysis of the deposited data

Results flagged for a closer look

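The change with 3MB-PP1 differed between the lines by the test of the difference itself (limma, adjusted over all tested genes) for 4 of the 9 genes and for 6 further genes of the pathway. For Lefty1 and Skil the test uses the values from which they were listed and is a description. As log2 differences, GSK3β minus GSK3α line, these were -1.40 for Lefty1, -0.78 for Inhbb, -0.24 for Skil and 0.21 for Nodal. Among the further genes they were 1.14 for Cdkn1a, 0.86 for Fst, 0.45 for Pcsk6, 0.28 for Klf10, -0.41 for Cited2 and -0.50 for Pmepa1. Beyond the losses given above for Skil and Nodal, that of Klf10 was lost without treated replicate 1 of the GSK3β line (0.0505). Without a variance trend the differences of Fst (0.0632), Pcsk6 (0.0800), Cited2 (0.0847) and Klf10 (0.113) were lost, as were those of Nodal (0.181) and Skil (0.191). The Lefty1 difference goes with unequal untreated levels, 53.3 in the GSK3β line and 21.3 in the GSK3α line, while the untreated Inhbb levels were 21.4 in the GSK3β line and 21.5 in the GSK3α line.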

How the results depend on the processing

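Without a variance trend 3 genes passed in the GSK3α line, 980 in the GSK3β line and 133 for the difference between lines, against 123, 2084 and 911. Of the 9 genes 2 then passed in the GSK3α line, Lefty1 and Lefty2, and 2 for the difference; with the other pathway genes these counts were 2 and 4. The calls of Acvr1b, Smad4, Ski, Cited2, Cdkn2b and Tdgf1-ps1 in the GSK3β line were lost without a trend as well. When single libraries were left out, the counts over all tested genes ranged from 16 to 186 in the GSK3α line, from 864 to 2277 in the GSK3β line and from 353 to 1339 for the difference; in the GSK3α line 16 passed without treated replicate 1 and 25 without treated replicate 2, and in the GSK3β line 864 without treated replicate 1 and 1181 without untreated replicate 1. The count for the difference over the 9 genes ranged from 2 to 4. Nodal in the GSK3β line also passed with a mean of at least 5 (adjusted p = 0.0485) and with median-ratio scaling (0.0380), and the Tdgf1 difference with a mean of at least 5 (0.0469) and with quantile scaling (0.0160).

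Signs turned only for values near 0 that had not passed. With quantile scaling the Smad3 difference was 0.026 and Smad2 between treated lines -0.00048, and with median-ratio scaling Inhbb between untreated lines was 0.0061. When single libraries were left out, the difference ranged from -0.11 to 0.0086 for Smad2 and from -0.081 to 0.054 for Smad3. Between untreated lines Inhbb ranged from -0.042 to 0.020 and Skil from -0.083 to 0.020, and between treated lines Smad2 from -0.060 to 0.061. The cause was not tested.

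Replicate numbers did not pair the libraries (correlations of deviations -0.0447 to 0.0271). With a replicate block 106, 1997 and 831 genes passed in the GSK3α line, the GSK3β line and for the difference, and 4, 6 and 4 of the 9 genes. The compared groups alone could not be used for the difference.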

Other observations

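Pathway genes outside the 9 also differed between the untreated lines: 10 of 45 were higher and 9 lower in the GSK3β line. Smad5, a SMAD of the BMP branch, was 1.08 higher on the log2 scale (limma adjusted p = 1.97e-09), Tgfbr3 0.46 (adjusted p = 0.000938) and the Nodal-related ligand Gdf3 0.34 (adjusted p = 1.83e-07). Acvr1b was at -0.44 (adjusted p = 8.82e-07), Tgfbr2 at -0.47 (adjusted p = 0.00544) and Foxh1, the nuclear partner of SMAD2, at -0.24 (adjusted p = 0.000496). T, the gene of brachyury and also among the 9 lower ones, had 0.586 and 0.930 in untreated GSK3β libraries, against 3.78 and 3.23 in untreated GSK3α ones. T passed the filter on the mean only through the GSK3α line, so its log2 difference of -1.36 and its place among the 9 are a description. Over the alternatives that difference ranged from -1.92 to -0.56. These genes stand beside a background in which 48.2% of all tested genes differed between the untreated lines.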
